A study of Mus musculus with 6 samples.

Results

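The genes described here in mouse neural tube organoids are the 4 nuclear factor I genes Nfia, Nfib, Nfic and Nfix, and the radial glia genes Fabp7, Slc1a3, Ptprz1 and Ttyh1. They were picked by name with earlier results of these libraries known, and they are 8 of the 17296 gene symbols present in both deposited tables. Their levels by library and cell class are therefore a description, and no test was run on them. The organoids were grown from Sox1::eGFP;Bra::mCherry mouse embryonic stem cells, a line that reports the neural gene Sox1 and the mesoderm gene Brachyury, and all groups share this line. Non-elongated organoids were taken at day 6 as 1 library, and elongated organoids at day 6 as 2 libraries (batch 1 and batch 2 in the labels, here replicates 1 and 2), and at day 7, day 8 and day 10 as 1 library each. All were embedded in Matrigel, given bFGF, a fibroblast growth factor, with activin-A up to day 3, and then N2B27 medium alone. Organoids grown past day 6 were freed with collagenase IV and dispase, placed 1 to a fresh Matrigel drop and fed daily. Each library pooled 100 organoids, so differences between organoids within a library are not visible.

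Radial glia are the elongated progenitors that line the neural tube and give rise first to neurons and later to glia. NFI proteins are transcription factors that bind DNA as dimers, and in the mouse spinal cord Nfia and Nfib are known to come on in progenitors as gliogenesis begins and to mark neurons born late. Fabp7 encodes the brain fatty acid binding protein of radial glia, Slc1a3 the glutamate transporter GLAST, Ptprz1 a receptor tyrosine phosphatase that binds pleiotrophin, and Ttyh1 a membrane protein of the tweety family found in neural stem cells.

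In the GENCODE M21 annotation of mm10, Nfia lies at chr4:97772734-98118874 and Nfib at chr4:82290173-82705750 on the same chromosome. Nfic lies at chr10:81396186-81455635, Nfix at chr8:84699876-84800344, Fabp7 at chr10:57784881-57788450, Slc1a3 at chr15:8634124-8710764, Ptprz1 at chr6:22875502-23052916 and Ttyh1 at chr7:4119408-4136708. All 8 are protein coding. Nfia, Nfic, Nfix and Ttyh1 share exon bases with genes on the opposite strand, and the strand setting of the counting is not given in the sources used here, so reads of these pairs may not be told apart. The overlapping gene with the most UMIs was Gm16104 beside Nfic, with 473 UMIs in the table of days 6 to 10.

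Promoter windows of 300 bases, from 250 before to 50 after each RefSeq start, were found for 7 of the 8 genes and not for Nfib. They were searched on both strands for the NFI palindrome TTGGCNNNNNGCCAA, for its 5-letter core TTGGC, which the palindrome contains, and for the RBPJ site GTGGGAA bound by the effector of Notch. Among the 4 radial glia genes the only match was 1 core in the Fabp7 window (chr10:57784673-57784972, plus strand, build GRCm38.p6), at bases 196 to 200, here in capitals. Its window and that of Slc1a3 (chr15:8710758-8711057, minus strand), which holds no match, are shown as RefSeq gives them, because Fabp7 was highest at day 8 and Slc1a3 lowest there, as the values show.
Fabp7: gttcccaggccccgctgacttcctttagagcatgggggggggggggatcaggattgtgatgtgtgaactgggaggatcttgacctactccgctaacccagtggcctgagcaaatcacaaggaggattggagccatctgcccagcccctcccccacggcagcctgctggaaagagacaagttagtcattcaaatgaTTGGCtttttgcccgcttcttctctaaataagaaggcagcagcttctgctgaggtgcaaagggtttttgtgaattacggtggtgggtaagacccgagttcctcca
Slc1a3: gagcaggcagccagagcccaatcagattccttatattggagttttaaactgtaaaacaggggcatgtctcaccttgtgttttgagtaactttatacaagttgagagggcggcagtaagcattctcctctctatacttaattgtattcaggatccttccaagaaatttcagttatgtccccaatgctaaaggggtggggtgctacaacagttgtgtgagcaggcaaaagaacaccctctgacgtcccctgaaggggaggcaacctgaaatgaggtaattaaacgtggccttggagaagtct
The core stood in 46.7% of all 32851 mouse promoter windows, so a match is no rarity. The palindrome stood in 12 windows (0.0365%) and the RBPJ site in 6.38%, and none of the members' windows held either. Nfix, with 4 windows, had the core in 3 of them. The Nfia window (chr4:97581693-97581992) lay outside the GENCODE span given above, and the Nfic and Nfix windows lay inside theirs. Whether these starts were the ones used in the organoids was not tested.

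Cell numbers ran from 2076 in elongated day 6 replicate 1 to 3677 at day 10, with 16282 cells in all. Totals ran from 74072752 to 152742819 UMIs, or unique molecules counted at the 3 prime end of transcripts. Median UMIs per cell ran from 22053 at day 10 to 59014 in replicate 2. The non-elongated library and replicate 1 lie in one deposited table and the other 4 libraries in another, with different class names. Any 2 libraries shared 1 to 4 cell barcodes. Levels of libraries are given in CPM (UMIs of a gene scaled to a common UMI total) after TMM scaling, and levels within a class in plain CPM. Both carry exact 95% Poisson intervals that cover counting error only. Levels are compared between samples or classes and not between genes. The share of Nfib among Nfia plus Nfib UMIs is likewise compared between classes and days.

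Nfia and Nfib were low up to day 7, higher at day 8 and far higher at day 10. Nfia measured 2.18 CPM in non-elongated organoids, 1.30 and 1.76 CPM in the elongated day 6 replicates, 2.22 CPM at day 7, 7.29 CPM at day 8 and 56.1 CPM at day 10. Nfib measured 1.37 CPM in non-elongated organoids, 0.301 and 0.382 CPM in the elongated day 6 replicates, 0.378 CPM at day 7, 1.93 CPM at day 8 and 42.3 CPM at day 10. The day 10 level of Nfia was 36.6 times the elongated day 6 mean of 1.53 ± 0.326 CPM (SD, n = 2). That of Nfib was 124 times its day 6 mean of 0.342 ± 0.0572 CPM (SD, n = 2). From day 8 the ratio was 7.69 for Nfia and 21.9 for Nfib, so most of the difference lay between the last pair of libraries. The libraries of day 8 and day 10 both stood outside the range of the day 6 duplicates, and no other library came near the day 10 level.

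The other family members differed less between libraries. Nfic, the family member with the broadest expression in mouse tissues, measured 4.20 CPM in non-elongated organoids, 3.49 and 2.53 CPM in the elongated day 6 replicates, 2.86 CPM at day 7, 3.26 CPM at day 8 and 7.40 CPM at day 10. Its day 7 and day 8 levels lay between the day 6 duplicates, and its day 10 level was 2.46 times their mean of 3.01 ± 0.678 CPM (SD, n = 2). Nfix rested on 13 to 31 UMIs in each library but the last, which had 111. It measured 0.289 CPM in non-elongated organoids, 0.178 and 0.219 CPM in the elongated day 6 replicates, 0.104 CPM at day 7, 0.244 CPM at day 8 and 1.11 CPM at day 10. Its 95% interval at day 10, 0.914 to 1.34 CPM, did not meet that of any other library, whose upper bounds reached 0.446 CPM.

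The radial glia genes each followed a course of their own. Fabp7 measured 20.9 CPM in non-elongated organoids, 38.8 and 132 CPM in the elongated day 6 replicates, 394 CPM at day 7, 1108 CPM at day 8 and 957 CPM at day 10. Unlike Nfia and Nfib, it was thus at its highest at day 8, and its day 8 level was 8.42 times that of replicate 2, from the same table. The day 6 duplicates themselves differed 3.39-fold, with a mean of 85.2 ± 65.7 CPM (SD, n = 2), and day 10 was 7.27 times replicate 2. Ttyh1 measured 5.69 CPM in non-elongated organoids, 3.72 and 4.01 CPM in the elongated day 6 replicates, 3.79 CPM at day 7, 16.6 CPM at day 8 and 38.3 CPM at day 10. Its duplicates were close (3.87 ± 0.204 CPM, SD, n = 2), and its first high library was day 8, as for Nfia. Ptprz1 differed in small steps, with 14.1 CPM in non-elongated organoids, 29.6 and 34.2 CPM in the elongated day 6 replicates, 42.5 CPM at day 7, 47.3 CPM at day 8 and 54.5 CPM at day 10. The day 10 level of Ptprz1 was 1.71 times the day 6 mean of 31.9 ± 3.24 CPM (SD, n = 2). Slc1a3 was lowest in the middle of the series, with 12.5 CPM in non-elongated organoids, 8.42 and 14.9 CPM in the elongated day 6 replicates, 7.28 CPM at day 7, 6.84 CPM at day 8 and 17.6 CPM at day 10. The day 6 duplicates of Slc1a3 spanned most of this range (11.6 ± 4.56 CPM, SD, n = 2), and day 10 was 2.58 times day 8, where replicate 2 was 1.77 times replicate 1.

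**Figure D1:**
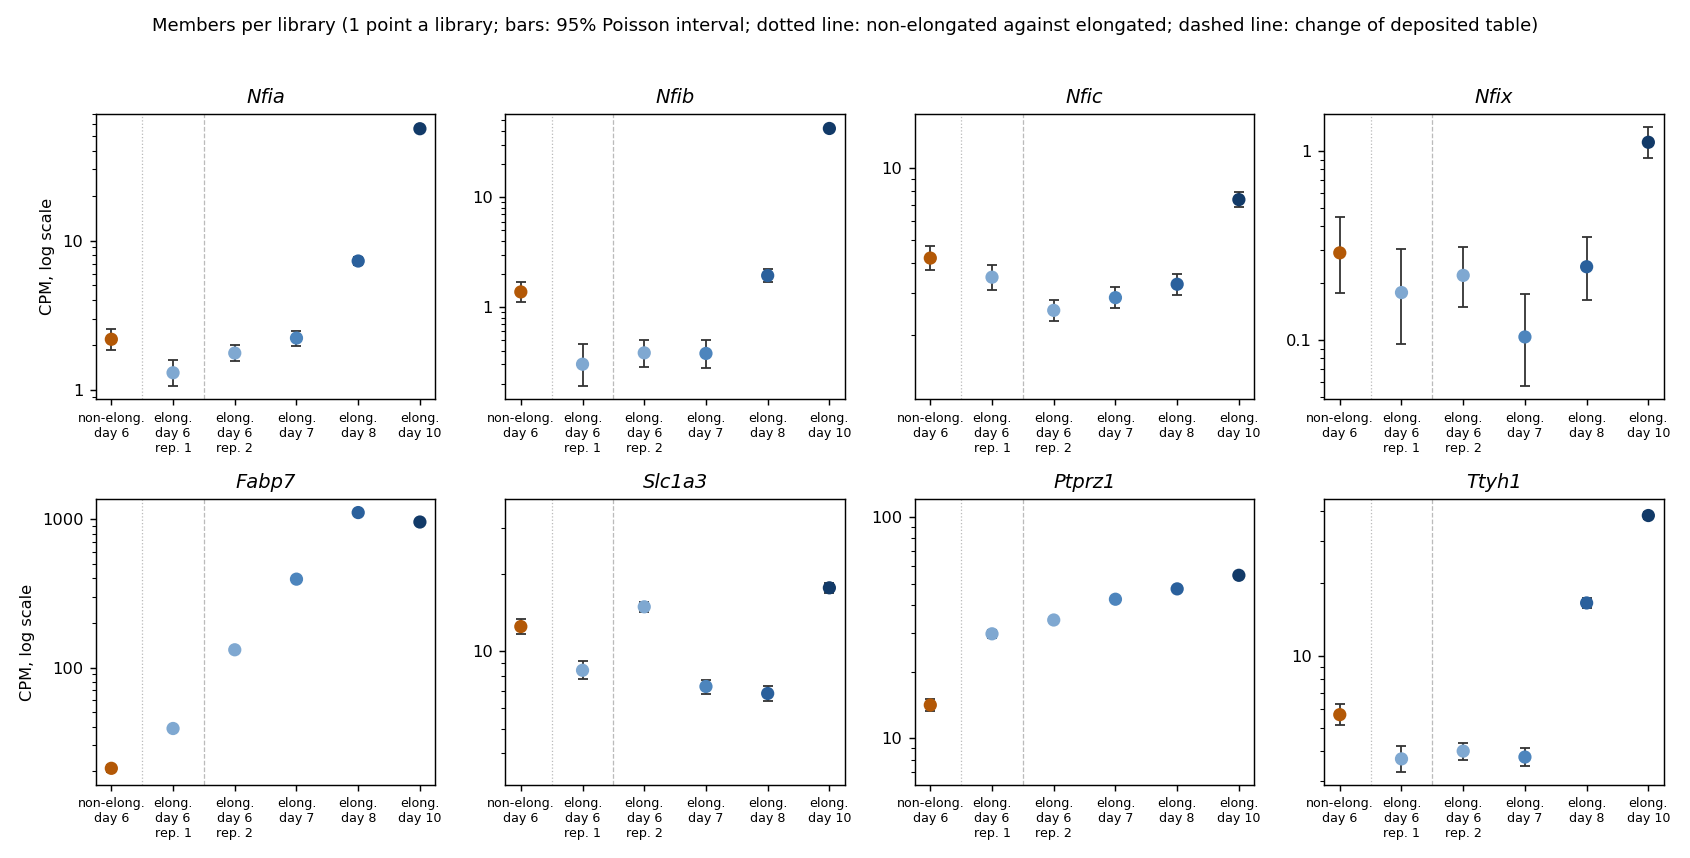
Level of each gene in CPM (log scale) in the 6 libraries, 1 point a library, with 95% Poisson intervals; the dotted line parts non-elongated from elongated organoids and the dashed line the 2 deposited tables. Nfia and Nfib stand far above all other libraries at day 10 (56.1 and 42.3 CPM), Fabp7 is already at 1108 CPM at day 8, and Slc1a3 is lowest at day 7 and day 8.

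Over the 8 genes, the median log2 difference (prior count 2) from the elongated day 6 duplicates was 0.06 at day 7, 1.33 at day 8 and 2.84 at day 10, where the medians over all 16379 genes tested were 0.01, 0.01 and 0.01. The signs were 4 positive at day 7, 7 positive at day 8 and 8 positive at day 10. These comparisons share the day 6 libraries. All 8 genes passed the filter on low counts.

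The summed level of a library does not separate how many cells of a class it held from how much each cell carried, so the genes were next read within the authors' classes. In the mid/hindbrain progenitors, the largest class of the later table, Nfia measured 1.59 CPM in replicate 2 at day 6, 1.97 CPM at day 7, 6.65 CPM at day 8 and 71.2 CPM at day 10. Nfib in the same class measured 0.375 CPM at day 6, 0.318 CPM at day 7, 1.38 CPM at day 8 and 62.1 CPM at day 10. The steep step from day 8 was therefore present inside 1 class, with ratios of 10.7 for Nfia and 45.1 for Nfib, above the 8.34 and 23.7 measured over all cells. In spinal cord cells Nfia measured 2.39 CPM at day 6, 0.870 CPM at day 7 (4 UMIs), 8.90 CPM at day 8 and 107 CPM at day 10. In them Nfib had 0 UMIs at day 6, where 3 UMIs would have been 0.399 CPM, and then 0.652 CPM at day 7, 3.58 CPM at day 8 and 136 CPM at day 10. Nfix was higher at day 10 in spinal cord cells too, with 6.64 CPM (39 UMIs) against 0.447 CPM (10 UMIs) at day 8. Each of these class values comes from 1 library, so it has no replicate.

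Fabp7 in mid/hindbrain cells measured 130 CPM at day 6, 422 CPM at day 7, 1368 CPM at day 8 and 1731 CPM at day 10. The slightly lower Fabp7 of the whole day 10 library was thus not seen inside this class. Ttyh1 in mid/hindbrain cells measured 3.76 CPM at day 6, 4.22 CPM at day 7, 18.6 CPM at day 8 and 78.2 CPM at day 10, and its ratio between the last pair, 4.20, was above the 2.50 over all cells. Slc1a3 was lowest at day 8 also inside mid/hindbrain cells, with 14.3 CPM at day 6, 7.44 CPM at day 7, 6.02 CPM at day 8 and 24.6 CPM at day 10. Slc1a3 in spinal cord cells measured 6.24 CPM at day 6, 6.09 CPM at day 7, 9.30 CPM at day 8 and 14.8 CPM at day 10. Ptprz1 at day 10 was on opposite sides of its day 6 level in these classes. It measured 28.2 CPM at day 6, 44.8 CPM at day 7, 49.3 CPM at day 8 and 73.7 CPM at day 10 in mid/hindbrain cells. In spinal cord cells Ptprz1 measured 77.1 CPM at day 6, 44.6 CPM at day 7, 65.0 CPM at day 8 and 49.0 CPM at day 10. The day 6 and day 7 spinal cord classes held 131 and 86 cells. Whether the classes differ was not tested, as each day has 1 library in this table.

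**Figure D2:**
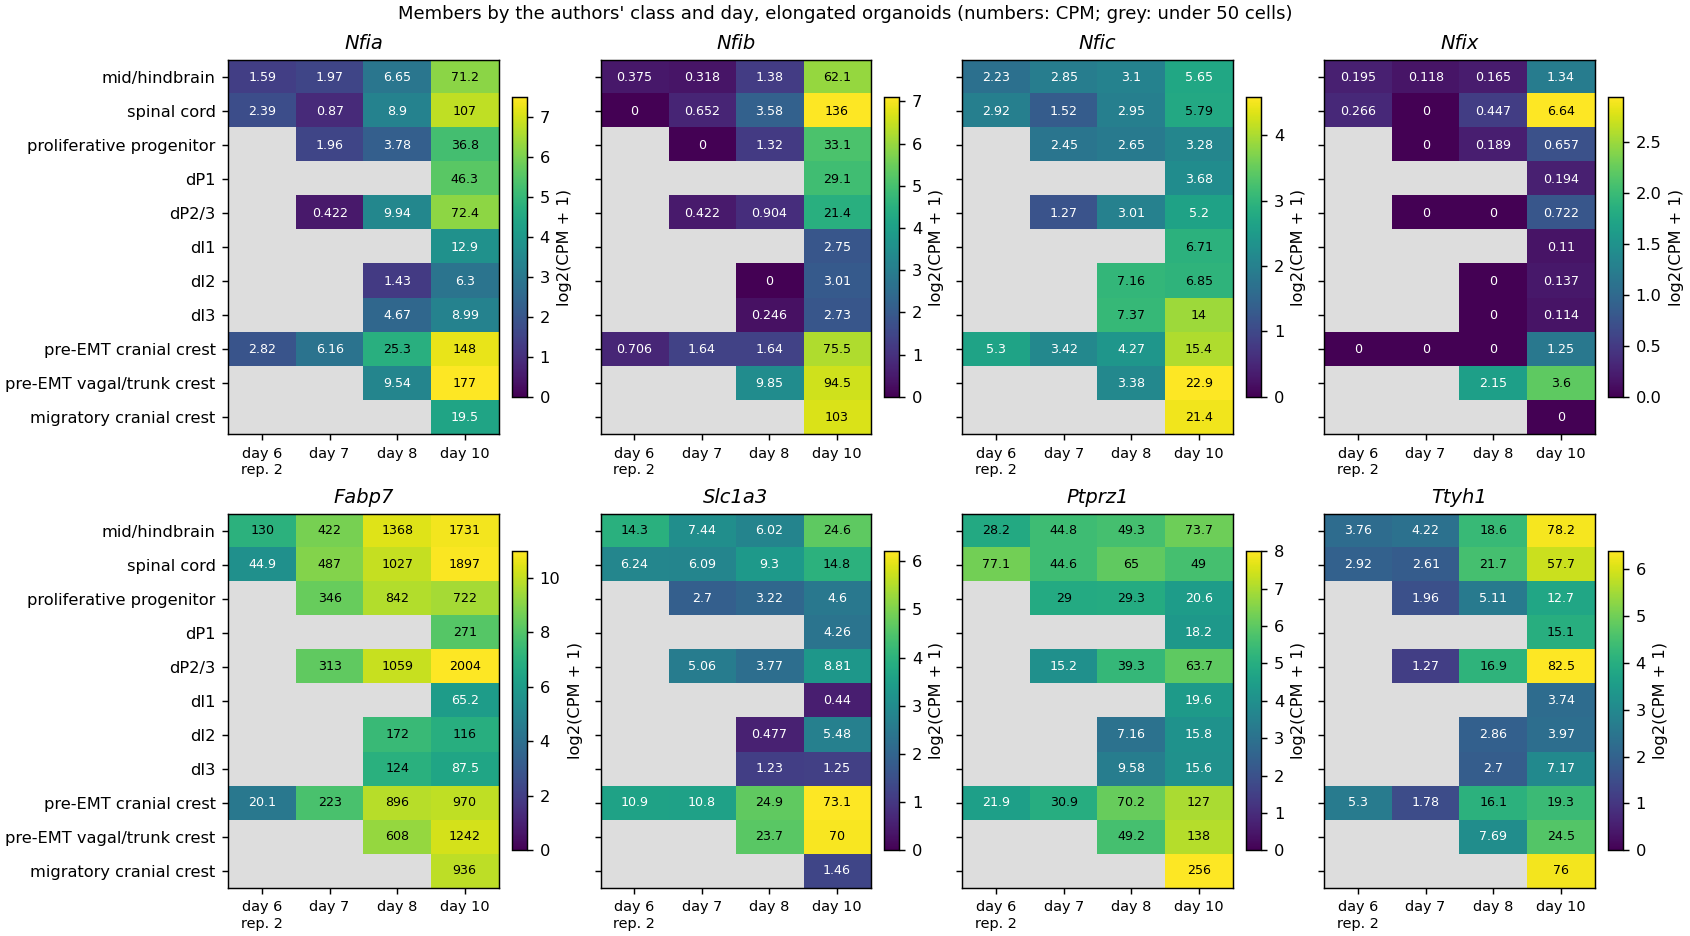
Level of each gene in CPM (printed; colour is log2 of CPM plus 1, with its own scale per gene) in the authors' classes (rows) at day 6 (replicate 2), day 7, day 8 and day 10 (columns); grey marks classes under 50 cells. Nfia and Nfib are bright at day 10 in progenitor and pre-EMT crest rows and dark in the dorsal interneuron rows dI1 to dI3, while Fabp7 is already bright at day 8.

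At day 10 Nfia and Nfib were low in neurons and higher in progenitor and pre-EMT crest classes, while migratory crest was high in Nfib and low in Nfia. Neural progenitor classes held 57.4% of the library's UMIs, 64.3% of its Nfia UMIs and 72.2% of its Nfib UMIs. The dorsal interneuron classes held 28.0% of all UMIs but 4.32% of Nfia and 1.68% of Nfib UMIs. By class, Nfia was highest in pre-EMT vagal/trunk crest (177 CPM), followed by pre-EMT cranial crest (148 CPM) and spinal cord (107 CPM), and each of these stood apart from the next by its interval. The dorsal progenitor class dP2/3 (72.4 CPM) and mid/hindbrain (71.2 CPM) had overlapping intervals, and so had dP1 (46.3 CPM) and proliferative progenitors (36.8 CPM). Migratory cranial crest (19.5 CPM) and the interneurons dI1, dI3 and dI2 came last for Nfia, the interneurons at 12.9, 8.99 and 6.30 CPM, with each overlapping its neighbour. The order for Nfib was another one. Spinal cord led Nfib (136 CPM), ahead of migratory cranial crest (103 CPM) and pre-EMT vagal/trunk crest (94.5 CPM), which overlapped each other. Then came pre-EMT cranial crest (75.5 CPM), mid/hindbrain (62.1 CPM), proliferative progenitors (33.1 CPM), dP1 (29.1 CPM) and dP2/3 (21.4 CPM) for Nfib, and the 3 interneuron classes from 2.73 to 3.01 CPM.

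The pre-EMT classes are named for crest cells before their epithelial-to-mesenchymal transition, but 2 defining crest genes were all but missing in them at day 10. Foxd3 had 0 UMIs in both pre-EMT classes, where 3 UMIs would have been 0.376 and 0.981 CPM, and Sox10 had 1 UMI in the cranial and 0 in the vagal/trunk class. Migratory cranial crest, 56 cells, had 90.1 CPM of Foxd3 and 374 CPM of Sox10. The summed level of 8 crest markers was 32.7 and 36.6 CPM in the pre-EMT cranial and vagal/trunk classes, within the 24.4 to 498 CPM of the 5 progenitor classes, and 1202 CPM in the migratory class. The same 2 pre-EMT classes had the most epithelium and mesenchyme markers of the library, 101 and 68.7 CPM over 9 epithelium genes and 134 and 68.3 CPM over 8 mesenchyme genes, against 1.46 to 20.1 CPM and 2.43 to 13.9 CPM elsewhere. What part these marker genes have in the high Nfia and Slc1a3 of the pre-EMT classes was not tested.

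The radial glia genes split over the same classes at day 10. Fabp7 was highest in dP2/3 (2004 CPM), spinal cord (1897 CPM) and mid/hindbrain (1731 CPM), and lowest in the interneurons, from 65.2 CPM in dI1 to 116 CPM in dI2. Ttyh1 was likewise highest in dP2/3 (82.5 CPM) and mid/hindbrain (78.2 CPM), with migratory crest (76.0 CPM) overlapping mid/hindbrain, and 3.74 to 7.17 CPM in the interneurons. Slc1a3 stood out by its high level in the pre-EMT cranial (73.1 CPM) and vagal/trunk (70.0 CPM) crest classes, which overlapped, ahead of mid/hindbrain (24.6 CPM) and spinal cord (14.8 CPM). In the migratory crest Slc1a3 had 1.46 CPM, which is 3 UMIs. Ptprz1 ran the other way within the crest classes, with 256 CPM in migratory crest against 138 and 127 CPM in the pre-EMT vagal/trunk and cranial classes. Ptprz1 in progenitors reached 73.7 CPM (mid/hindbrain), and the interneurons had 15.6 to 19.6 CPM. The dP1 progenitors were low in all 4 radial glia genes, with 271 CPM of Fabp7, 4.26 CPM of Slc1a3, 18.2 CPM of Ptprz1 and 15.1 CPM of Ttyh1. In the dP1 class 9 neuron markers summed to 2411 CPM, against 310 CPM in mid/hindbrain and 378 CPM in spinal cord. The dP2/3 class, high in Fabp7 and Ttyh1, had 1860 CPM of these markers. What part neurons have in the low dP1 values was not tested. Proliferative progenitors overlapped dP1 in Slc1a3 (4.60 CPM), Ptprz1 (20.6 CPM) and Ttyh1 (12.7 CPM), but had 722 CPM of Fabp7. Nfic had another order, as dI3 neurons had 14.0 CPM of Nfic while the progenitor classes had 3.28 to 5.79 CPM. The highest Nfic values were again in the crest classes (15.4 to 22.9 CPM).

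**Figure D3:**
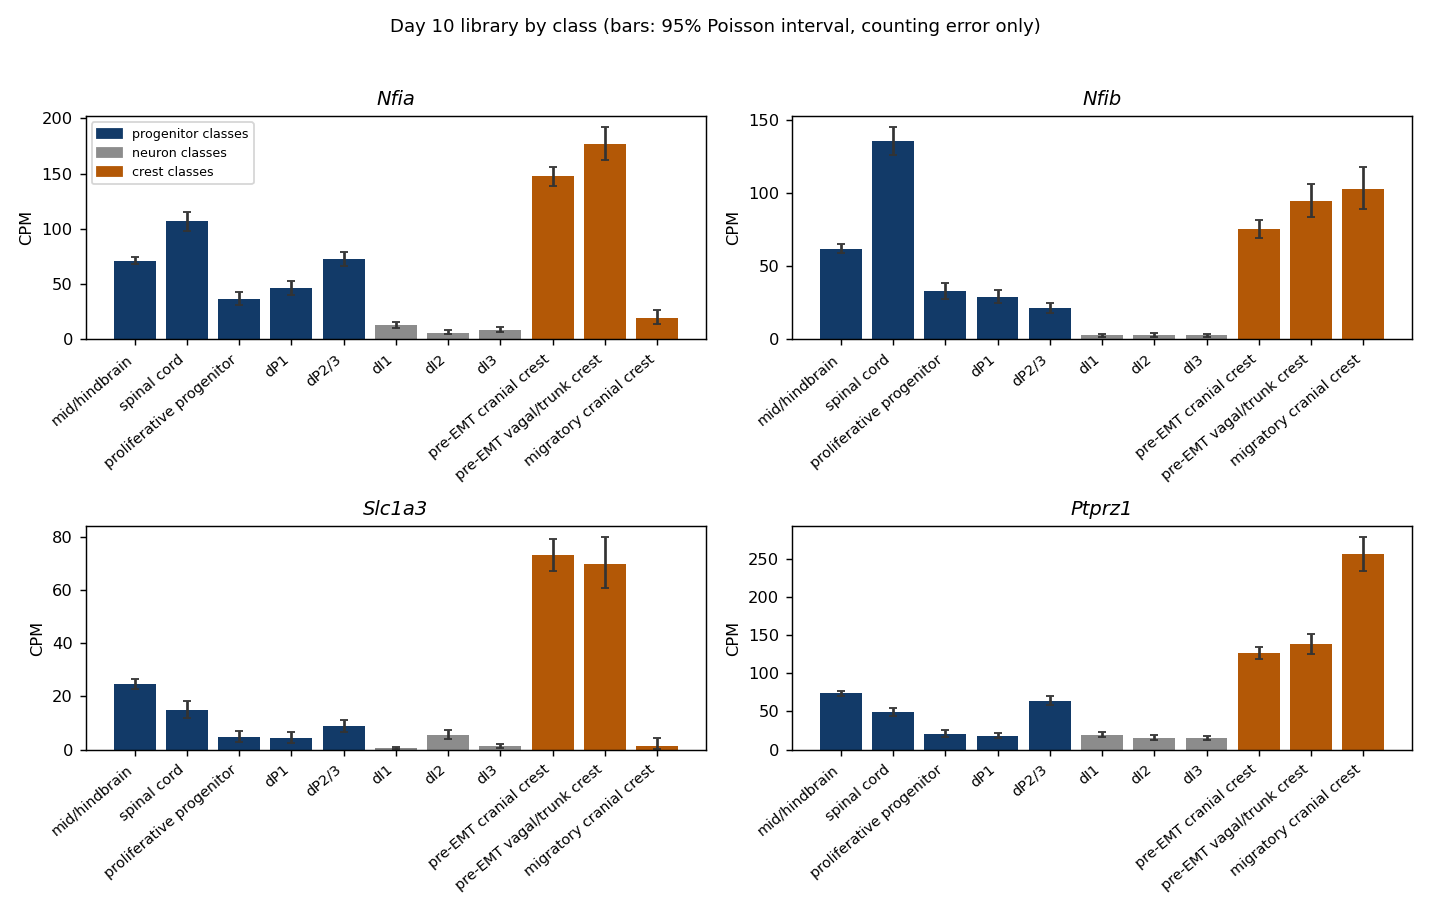
Level in CPM of Nfia, Nfib, Slc1a3 and Ptprz1 in each class of the day 10 library (bars), with 95% Poisson intervals; blue marks progenitors, grey neurons and orange crest classes. Nfia and Slc1a3 peak in the pre-EMT crest classes and are low in migratory crest, whereas Nfib peaks in spinal cord and Ptprz1 in migratory crest.

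The balance of Nfib to Nfia UMIs, which does not depend on the library's scaling, differed between classes and days. At day 10 Nfib made up 84.1% of the Nfia plus Nfib UMIs in migratory crest (exact binomial 95% interval 78.9 to 88.4%), 55.9% in spinal cord (53.3 to 58.5%) and 46.6% in mid/hindbrain (45.0 to 48.2%). In dP2/3 Nfib was 22.8% (19.6 to 26.2%) and in dI1 17.6% (11.7 to 24.9%). Both pre-EMT crest classes lay close together, at 33.9% and 34.8%. In mid/hindbrain cells the Nfib share was 19.0% at day 6, 13.9% at day 7, 17.2% at day 8 and 46.6% at day 10. Spinal cord cells had 28.7% Nfib at day 8 (23.4 to 34.4%). Of the pre-EMT crest classes, the cranial class had 6.10% Nfib at day 8 (2.01 to 13.7%), below its day 10 share. The vagal/trunk class had 50.8% at day 8 (37.9 to 63.6%), from 31 Nfia and 32 Nfib UMIs. That interval overlapped the one of its day 10 share of 34.8% (31.6 to 38.2%), so no difference is shown for this class.

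**Figure D4:**
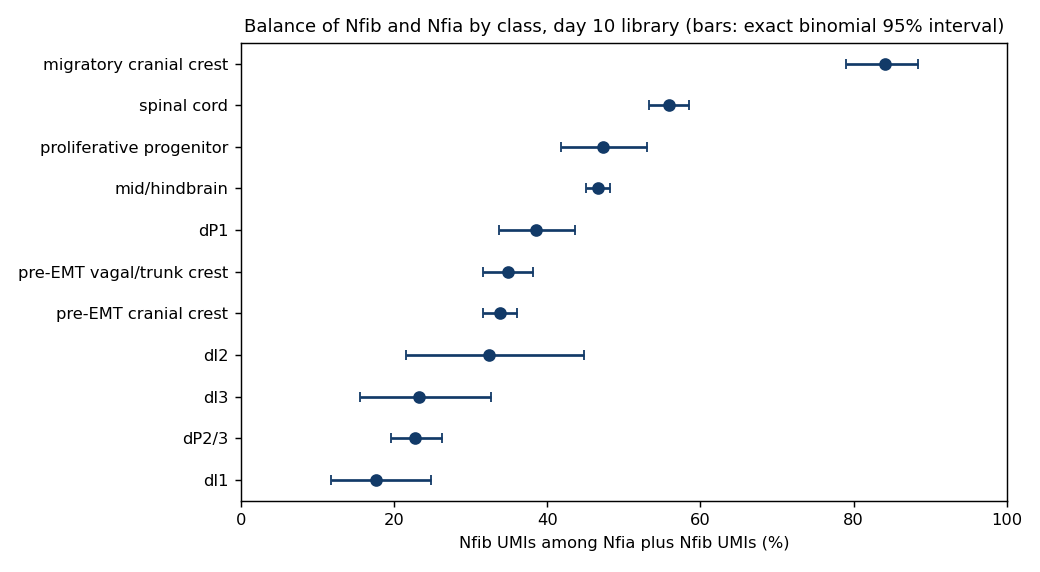
Share of Nfib among Nfia plus Nfib UMIs (percent, x axis) in each class of the day 10 library (rows, sorted), with exact binomial 95% intervals. Migratory crest stands alone at 84.1%, spinal cord lies above mid/hindbrain, and dP2/3 and dI1 lie lowest.

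Libraries differed in depth per cell, so cells were thinned to 10000 UMIs each before counting positive cells, which left out at most 26 cells of a library. For genes with few UMIs per cell such a share largely follows the mean level. It therefore cannot separate more positive cells from more UMIs per cell. Nfia was then found in 1.57% of non-elongated cells, in 1.16% and 1.67% of the elongated day 6 replicates, and in 2.19% of cells at day 7, 6.51% at day 8 and 32.6% at day 10. Without thinning the day 8 and day 10 shares of Nfia were 16.8% and 46.4%. Nfib was found in 1.62% of non-elongated cells, in 0.241% and 0.501% of the elongated day 6 replicates, and in 0.469% at day 7, 1.50% at day 8 and 24.2% at day 10, and unthinned in 5.00% at day 8 and 37.6% at day 10. The day 10 interneurons had Nfib in 1.38 to 2.09% of cells, and how much of that is free RNA was not tested. Fabp7 came closest to all cells, with 14.4% of non-elongated cells, 24.1% and 58.6% of the day 6 replicates, 88.0% at day 7, 95.4% at day 8 and 75.5% at day 10. Unthinned, Fabp7 was found in 97.5% of day 8 and 83.6% of day 10 cells. In mid/hindbrain cells at day 10 Fabp7 was found in 99.3%, against 33.4 to 46.1% of the interneuron classes, whose median depth before thinning was 18688 to 22538 UMIs against 25997. Nfia was found in 43.4% of mid/hindbrain cells and in 4.70 to 10.4% of the interneurons, a range that also holds the day 8 share of all cells. Ttyh1 was found in 3.79% of cells at day 7, 13.6% at day 8 and 23.7% at day 10 (unthinned 16.1%, 35.6% and 36.2%). Slc1a3 was found in 12.1% of cells in replicate 2, 7.63% at day 7, 5.67% at day 8 and 12.2% at day 10, the same order as its CPM. Unthinned, the deeper replicate 2 had Slc1a3 in 50.8% of cells, against 28.8% at day 7, 17.0% at day 8 and 22.7% at day 10.

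**Figure D5:**
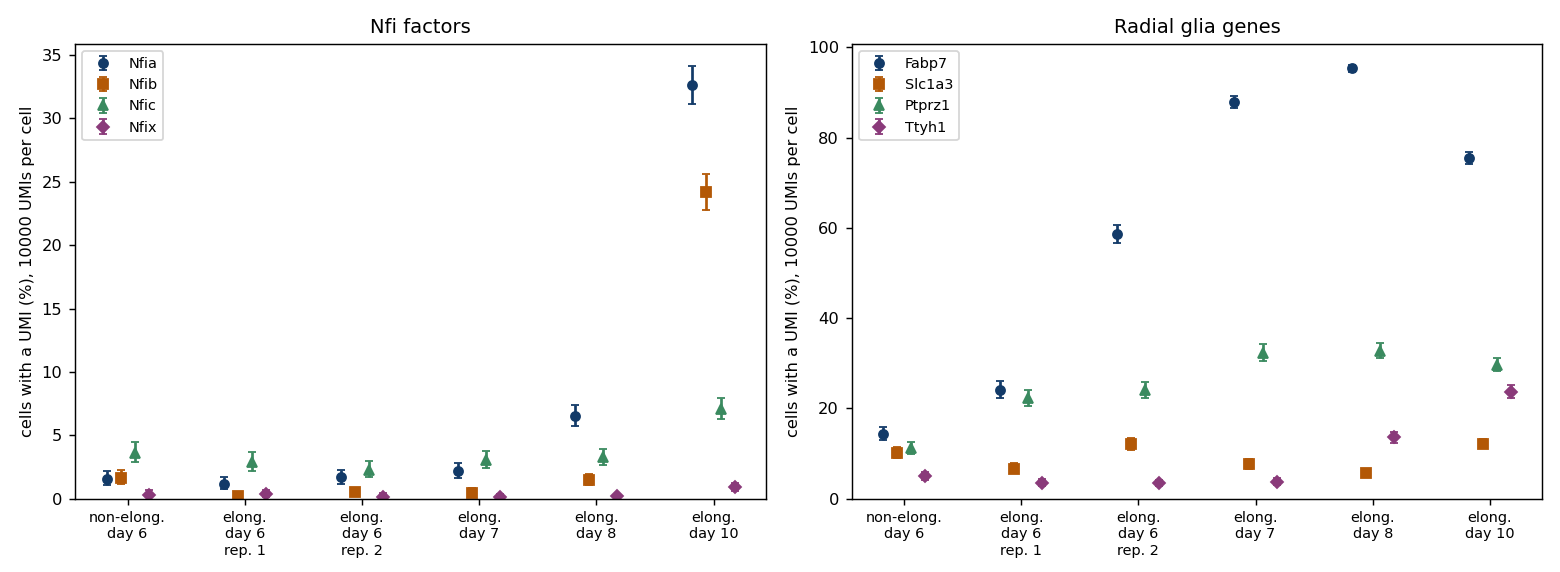
Percent of cells with at least 1 UMI after thinning to 10000 UMIs per cell (y axis) in the 6 libraries, with exact binomial 95% intervals; NFI genes left, radial glia genes right. Nfia and Nfib reach 32.6% and 24.2% at day 10, while Fabp7 reaches 95.4% at day 8.

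In the same cells at day 10, Nfia and Nfib were found together in 13.2% of 3651 cells (95% interval 12.1 to 14.4%), where independent detection would give 7.88%. Within mid/hindbrain cells the shares were closer, 17.9% together and 15.7% under independence, a smaller excess than over all cells. Nfia and Ttyh1 were found together in 12.5% of cells against 7.74% under independence, and within mid/hindbrain in 23.1% against 18.8%. Nfia and Tubb3, a tubulin of neurons, met in 19.5% of cells against 24.7% under independence. Cells of 1 library are no replicates, and no test was made.

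The mid/hindbrain class of day 10 was itself mixed. Its 6 clusters of at least 50 cells held 39.1 to 110 CPM of Nfia and 27.6 to 85.6 CPM of Nfib. The cluster with the most Nfib (cluster 1, 207 cells) had 50.6 CPM of Nfia, below the class level, so the clusters did not rank alike for both genes. Slc1a3 ran from 20.4 to 26.9 CPM. Fabp7 ran from 1428 to 2057 CPM, and Ttyh1 from 52.8 to 98.3 CPM, over these clusters.

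The 1 non-elongated library had less Fabp7 and Ptprz1 and more Nfib than either elongated library at day 6. Against replicate 1, from the same table, the ratio was 0.539 for Fabp7, 0.477 for Ptprz1 and 4.55 for Nfib. The elongated replicates themselves differed 3.39-fold in Fabp7, more than the 1.86-fold gap between non-elongated organoids and replicate 1. They differed 1.15-fold in Ptprz1 and 1.27-fold in Nfib. Whether the non-elongated library lies beyond the spread between libraries was not tested. The lower Fabp7 and Ptprz1 were also present inside the hindbrain class, with 38.1 CPM of Fabp7 in non-elongated and 64.8 CPM in elongated organoids. Ptprz1 there measured 12.1 CPM in non-elongated and 21.7 CPM in elongated organoids. Ptprz1 was lower in non-elongated organoids also in caudal epiblast (9.85 against 21.5 CPM), spinal cord (30.4 against 54.5 CPM) and surface ectoderm (3.68 against 24.1 CPM). In anterior epiblast Ptprz1 was not lower, with 17.0 CPM in non-elongated and 16.5 CPM in elongated organoids. In midbrain it was little lower, with a ratio of non-elongated to elongated of 0.920. In the caudal epiblast, Fabp7 measured 17.3 CPM in non-elongated and 25.8 CPM in elongated organoids. The surface ectoderm class showed the widest gap in Fabp7, 6.63 CPM in non-elongated and 46.8 CPM in elongated organoids. The Nfib of non-elongated organoids came to 71.6% from epiblast classes (68 of 95 UMIs), which held 52.0% of all UMIs, and to 21.1% from surface ectoderm, which held 7.33%. Its level in surface ectoderm was 3.68 CPM (20 UMIs) in non-elongated organoids against 0 UMIs in elongated ones, where 3 UMIs would have been 0.583 CPM. The surface ectoderm classes of the 2 libraries were themselves unlike. Their 9 epithelium markers summed to 5104 CPM in non-elongated and 1163 CPM in elongated organoids. What part this has in the gaps in that class was not tested. Neural progenitors of the non-elongated library held 5 Nfib UMIs. Nfia in the same library was highest in mesenchyme cells, at 8.86 CPM, a class with only 17 cells in replicate 1. Slc1a3 had no single direction, since 12.5 CPM in non-elongated organoids lay between 8.42 and 14.9 CPM.

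Other genes of radial glia and of the glial lineage were counted with edgeR's quasi-likelihood test and Benjamini-Hochberg adjustment over all 16379 genes, at a false discovery rate of 0.05. The lists were drawn up with earlier results of these data known. Of 16 other radial glia genes, 6 were higher and 2 lower at day 10 than in the elongated day 6 duplicates, where 26.4% of all genes tested were called, 14.1% higher and 12.3% lower. Their median log2 fold change was 0.17, against -0.01 over all genes. Gpm6b, a membrane proteolipid, had 97.0 CPM at day 10 against a day 6 mean of 1.07 CPM (log2 fold change 6.51 ± 0.31, SE; edgeR adjusted p = 8.45e-05). The intermediate filament genes Vim and Nes had log2 fold changes of 3.86 and 2.79, while Hes1, an effector of Notch, had -2.10 and Zfp36l1 -1.16. Sox2, a factor of all neural progenitors, had 182 CPM at day 10 and 184 CPM at day 6 and was not called. At day 8, 6 of the 16 were higher and 2 lower, with 13.4% of all genes called, 6.74% higher and 6.64% lower (median 0.94). At day 7, 4 were higher and 0 lower, with 3.99% of all genes called, 1.9% higher and 2.09% lower (median 0.45).

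Genes known from astrocytes were called in both directions. Of 17, 5 were higher and 3 lower at day 10 (median 0.36), where 14.1% of all genes were higher and 12.3% lower. At day 8, 4 were higher and 4 lower (median 0.13), where 6.74% of all genes were higher and 6.64% lower. At day 7, 1 was higher and 2 lower (median 0.34), where 1.9% of all genes were higher and 2.09% lower. Slc1a2, the glial glutamate transporter beside Slc1a3, had 69.9 CPM at day 10 against 2.60 CPM at day 6 (log2 fold change 4.75), while the endothelin receptor gene Ednrb had a log2 fold change of 4.05 and the transcription factor gene Zbtb20 one of 2.69. Aldoc, a glycolytic enzyme, and Gja1, a gap junction protein, had log2 fold changes of -3.02 and -2.26. Gfap, the filament of mature astrocytes, stood at 0.0400 CPM (4 UMIs) at day 10, and Aqp4, their water channel, at 0.170 CPM (17 UMIs). Of 8 oligodendrocyte lineage genes tested, 2 were higher at day 10 (median 0.50), where 26.4% of all genes were called. The median was 1.11 at day 7 and 0.25 at day 8. They were Sox10 (log2 fold change 4.01) and Olig1, which was at 0.911 CPM and is named after its value was seen. Of the 820 Sox10 UMIs at day 10, 769 lay in the migratory crest class. In the same list none was called by edgeR at day 8, where 2 had an unadjusted p under 0.05 and DESeq2 called 0.

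The list of temporal transcription factors held the Onecut, Pou2f2 and Zfhx genes, which mark birth order of spinal neurons along with Nfia and Nfib. It also held Neurod2, Neurod6 and Tcf4, and its genes were called in 1 direction. All 8 tested of 10 were higher at day 10 (median 3.68), 5 at day 8 (median 3.02) and 3 at day 7 (median 0.71). Of all genes tested, 14.1% were higher at day 10, 6.74% at day 8 and 1.9% at day 7. Pou2f2 had 149 CPM at day 10 against 2.24 CPM at day 6 (log2 fold change 6.06 ± 0.39, SE; edgeR adjusted p = 0.000158). Onecut1 had a log2 fold change of 4.62 at day 7, 6.04 at day 8 and 6.55 at day 10, and was called at all 3 days. All 9 neuron markers were higher at day 10 as well (median 5.53). In neural progenitor classes only, 5 of the 8 temporal genes were called at day 10, where 17.1% of all genes were called, 8.85% higher. These classes were not free of neuron markers. At day 10 the 9 markers summed to 2411 CPM in dP1, 1860 CPM in dP2/3 and 2434 CPM in proliferative progenitors. In mid/hindbrain and spinal cord cells they summed to 310 and 378 CPM. What part neurons in these classes have in the calls was not tested. Onecut2 reached 112 CPM at day 10 against 6.32 CPM at day 6.

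Of 6 ligands and partners of Ptprz1, 2 were higher at day 10 (median 1.39; 26.4% of all genes were called), namely the cell adhesion genes Cntn1 and Nfasc, with log2 fold changes of 5.90 and 2.94. The ligand genes Ptn (1374 CPM at day 10, 1082 CPM at day 6) and Mdk (832 CPM at day 10, 1026 CPM at day 6) were not called. At day 8, 2 partners were higher (median 1.05), where 6.74% of all genes were higher. At day 7 none was called, with 2 at an unadjusted p under 0.05 and 1 called by DESeq2 (median 0.24). Of 11 paralogues of the radial glia genes, 2 were higher (Slc1a2 and Ptprg) and 1 lower (Slc1a5, log2 fold change -2.20) at day 10 (median 0.37), against 26.4% of all genes called. At day 8, Slc1a2 was higher and Slc1a5 lower (median 0.49). At day 7 none was called by edgeR, 1 had an unadjusted p under 0.05 and DESeq2 called 0 (median 0.25). Fabp5, a fatty acid binding protein related to Fabp7, had 1261 CPM at day 10 and 984 CPM at day 6 and was not called. Of the marker lists of other cells at day 10, 4 of 8 crest markers were higher, 8 of 9 epithelium and 6 of 7 epiblast markers lower, and of 8 mesenchyme markers 1 was higher and 2 lower.

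Between day 10 and day 8, edgeR called 32 genes (0.195%), 28 higher (0.171%) and 4 lower (0.0244%), and none was among the 103 tested genes of these lists. At an unadjusted p under 0.05 there were 44 of those 103, and 1666 of all 16379 genes tested. RLE scaling gave 2 neuron markers. The 281 genes called by DESeq2 held 8 of 9 neuron markers, 4 of 17 astrocyte genes and 2 of 7 epiblast markers, and 1 gene each of the radial glia, temporal, Ptprz1 partner and paralogue lists. For non-elongated against elongated organoids edgeR called no gene (0.0%), with 1137 genes at an unadjusted p under 0.05 and 127 called by DESeq2. Among the list genes 37 had an unadjusted p under 0.05 there, and DESeq2 called 7 of 9 epithelium markers, 3 radial glia genes, and 2 genes each of the astrocyte, Ptprz1 partner, mesenchyme and epiblast lists.

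The genes most like each member were sought over 27 units of class and library with at least 50 cells in the table of days 6 to 10, by Pearson correlation of log2(CPM + 1) among 8574 genes. The units share libraries and depth, so the values are descriptions. Nfia and Nfib were close to each other (0.90) and to Ttyh1 (0.80 and 0.81), while Nfic and Fabp7 had 0.05. Outside the members, Ndufb4, a subunit of respiratory complex I, was nearest to both Nfia (0.91) and Nfib (0.86). Mir9-3hg, the host transcript of a mir-9 gene, came next for Nfia (0.89), with 43.8 CPM at day 10 against 1.83 CPM at day 8, and 2610035F20Rik followed (0.88). Itgav and Abcd3 followed for Nfib (0.85 each). For Fabp7 they were Zmynd11 (0.88), Nes (0.87) and the Notch feedback gene Nrarp (0.87), which like Fabp7 was higher at day 8 (71.7 CPM) than at day 10 (56.7 CPM). For Slc1a3 they were Ptpru (0.88), Pla2g7 (0.88) and Focad (0.87), and Pla2g7 was likewise lowest at day 8, with 28.1 CPM at day 6 (replicate 2), 26.0 CPM at day 7, 10.5 CPM at day 8 and 32.8 CPM at day 10. Ttyh1 had Vcam1 (0.83), Lrp6 (0.83) and Ndufa12 (0.82), and Vcam1 was found at 0.689 CPM at day 8 and 7.18 CPM at day 10. Ptprz1 had Slc35b2 (0.85), Spata13 (0.85) and Fam120a (0.84). Nfic had Itm2b (0.91), Maged2 (0.86) and Ctsb (0.85), and Nfix had Gm29478 (0.86), Larp1b (0.81) and Ntrk2 (0.76).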

How the data were processed

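UMI counts per gene and cell were deposited by the authors without normalisation, in 2 tables with 18144 and 21062 genes and 16282 cells in all, which passed different filters. Cell Ranger 3.1 and build mm10 are named, per the submitters' processing notes. The authors also deposited counts of UMIs and genes per cell, the mitochondrial percent and class names, cluster numbers and barcodes (other, without unit). Doublet treatment is not given in the sources used here. The day 6 table's NENT and SENT were read as non-elongated and elongated from their initials. The members and gene lists were chosen with earlier results of these data known.

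UMIs were summed per library and fitted in R 4.3.3 with edgeR 4.0.16 (TMM, filterByExpr minimum count 10, quasi-likelihood, Benjamini-Hochberg over 16379 genes) with 5 group means. The fit has 1 residual degree of freedom, from the elongated day 6 duplicates, which also differ in batch and table, so lone libraries are assumed to vary as these do (common dispersion 0.0872). Nothing in the labels says that they came from separate cultures, so p-values measure only the spread between these samples. DESeq2 1.42.0, other scalings and filters were alternatives. From each list, the text names up to 3 highest and 3 lowest called genes with at least 5 CPM, and a few others chosen after their values were seen. Classes need at least 50 cells. Embedding coordinates and other annotation in 66 metadata columns were not used. Motifs were matched in RefSeq windows of GRCm38.p6, credited to RefSeq. The planned comparison of protein sequences was not made. The day 7 count of the oligodendrocyte list is not reported here.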

Additional observations from a re-analysis of the deposited data

Results flagged for a closer look

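Some genes differed in opposite directions between classes over the same interval. A difference was taken where the 95% Poisson intervals of both libraries did not overlap and the log2 ratio of CPM plus 1 reached 0.5 either way. None of these differences between classes was tested, since each day has 1 library in this table. Fabp7 at day 10 over day 8 was higher in spinal cord (0.88), dP2/3 (0.92) and pre-EMT vagal/trunk crest (1.03), and lower in dI2 (-0.56). Ptprz1 at day 10 over day 6 was higher in mid/hindbrain (1.35) and pre-EMT cranial crest (2.48), and lower in spinal cord (-0.64). Ptprz1 at day 7 over day 6 was likewise higher in mid/hindbrain (0.65) and lower in spinal cord (-0.78). Slc1a3 at day 8 over day 6 was higher in pre-EMT cranial crest (1.12) and lower in mid/hindbrain (-1.12). Day 6 is replicate 2 throughout.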

How the results depend on the processing

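No paired analysis was possible because only elongated day 6 has more than 1 library and no other group shares its second replicate number. Leaving out either duplicate leaves no residual degree of freedom, and those values have no test.

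The count of genes called at day 7 was 654, and 380 with a minimum count of 100 and 395 in neural progenitor classes only. At day 10 against day 6 it was 4320, and 2698 in progenitor classes only. At day 10 against day 8 it was 32, and 117 with RLE scaling, 0 with a minimum count of 100, 13 without a filter, 8 in progenitor classes only and 281 with DESeq2. For non-elongated organoids it was 0, and 21 with RLE scaling and 127 with DESeq2. The remaining alternatives kept counts within 1.5 times. Under library size alone the median of all genes stood at 0.11 at day 7, 0.13 at day 8 and 0.24 at day 10 (log2; -0.01 at day 10 with TMM), and the split at day 10 to 2991 higher and 1382 lower, from 2302 and 2018 with TMM. At day 7 the split became 340 and 269 (TMM 312 and 342), and at day 8 1337 and 907 (TMM 1104 and 1088). DESeq2 gave no adjusted p to 1588 to 3811 genes.

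Of 40 log2 differences of the members, 40 kept their sign with RLE scaling and with a prior count of 0.5, 38 with library size alone and 37 in progenitor classes only. Beyond the spread of the day 6 duplicates, 20 of the 40 moved in progenitor classes only and 7 with library size alone. Of 32, 29 kept it without replicate 1 and 30 without replicate 2. The sign turned for Nfib, Nfic and Ttyh1 at day 7 and Nfic at day 8, all within 0.18 of 0. For Slc1a3 in non-elongated organoids it turned without replicate 1 (0.15 with both, -0.25 without), and for Fabp7 at day 10 against day 8 in progenitor classes only (-0.21 over all cells, 0.27 in progenitors). The excess of Nfib in non-elongated organoids was 1.96 over all cells and 0.27 in progenitors. The 3 genes most like a member shared at least 2 names for 2 of 8 members with units of at least 100 cells and for 3 of 8 with both tables. The cause was not tested.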
